A study of Mus musculus with 20 samples.

Results

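The AP-1 and immediate early factors described here are 10 genes: Fos, Fosb, Fosl1, Fosl2, Jun, Junb, Jund, Atf3, Egr1 and Maff. They were chosen by name from what the genes are known to do, with earlier results of these data known. All 10 were found among the 18193 genes measured with at least 1 probeset of their own. The arrays hold 14 probesets for them. Fosl1, Fosl2, Jun and Jund have a second one, and for these the probeset with the highest mean over the 20 arrays was kept and the other was used as a check. Every level below is a log2 value made by the authors with RMA, so a difference of 1 is a doubling of signal, and levels are compared between samples of the same gene and not between genes.

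The study profiled whole-tissue RNA of epidermal tumors of mice that lack Trp53 in stratified epithelia, beside normal skin. Normal skin came from 5 wild type FVB mice of 2 months. The Trp53ΔEC group held 7 tumors of k14Cre;p53loxP/loxP mice, and the RbΔEC; Trp53ΔEC group held 8 tumors of k14Cre;p53loxP/loxP;pRbloxP/loxP mice, all FVB, in which Cre is driven by the keratin 14 promoter and so acts in basal keratinocytes and not in the stroma. All tumors therefore share the Trp53 deletion, and no skin sample carries it. By the label of histological subtype, 6 tumors were poorly differentiated (2 Trp53ΔEC and 4 RbΔEC; Trp53ΔEC), 5 were undifferentiated or spindle cell carcinomas (2 and 3) and 4 were labelled mixed (3 and 1). The labels give tumors no age, and an effect of age cannot be told apart from that of the tumor.

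AP-1 is a dimer of basic leucine zipper proteins. Jun proteins pair with each other or with Fos proteins and bind a short palindromic DNA element, the TPA response element, while ATF proteins such as Atf3 favour the related cyclic AMP response element. Fos, Fosb, Junb, Atf3 and Egr1 are classical immediate early genes, transcribed within minutes of a growth factor, wound or stress signal through MAP kinases and serum response factor, with no need for new protein. Fosl1 (Fra-1) and Fosl2 (Fra-2) accumulate later and for longer, and Fosl1 is itself a target of AP-1. In skin, AP-1 sites lie in genes of keratinocyte differentiation and of matrix breakdown.

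On GRCm38.p6, Fos spans chr12:85473890-85477274, Fosb chr7:19302696-19310118, Fosl1 chr19:5447698-5455938 and Fosl2 chr5:32136472-32157840. Jun spans chr4:95049036-95052222, Junb chr8:84976909-84978748, Jund chr8:70697739-70700616, Atf3 chr1:191170296-191183333 and Maff chr15:79346621-79359078. The regulatory letters around the start of these genes are shown for the pair called between carcinoma grades, Fos and Junb, and for Jun, which passed the test in no comparison. The 250 bases upstream of the annotated start were taken from RefSeq on GRCm38.p6. Capitals mark exact matches, on either strand, to TGACG, the core of the cyclic AMP response element, and to TATAAA, the TATA box.
Fos, chr12:85473640-85473889, plus strand: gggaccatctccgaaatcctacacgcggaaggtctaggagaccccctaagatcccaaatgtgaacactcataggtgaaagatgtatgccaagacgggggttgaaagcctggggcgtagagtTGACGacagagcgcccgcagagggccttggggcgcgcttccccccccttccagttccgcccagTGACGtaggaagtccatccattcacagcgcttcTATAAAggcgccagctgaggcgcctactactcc
Junb, chr8:84978749-84978998, minus strand: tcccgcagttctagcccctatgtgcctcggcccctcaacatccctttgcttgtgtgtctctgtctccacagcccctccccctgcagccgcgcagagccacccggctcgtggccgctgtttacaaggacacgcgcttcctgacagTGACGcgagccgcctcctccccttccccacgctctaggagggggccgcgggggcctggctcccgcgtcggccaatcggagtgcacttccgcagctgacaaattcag
Jun, chr4:95052223-95052472, minus strand: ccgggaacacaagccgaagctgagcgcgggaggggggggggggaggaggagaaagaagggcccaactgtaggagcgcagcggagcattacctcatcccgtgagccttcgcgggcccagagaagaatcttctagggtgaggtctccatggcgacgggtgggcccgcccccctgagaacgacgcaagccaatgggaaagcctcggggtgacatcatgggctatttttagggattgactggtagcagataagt

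The Fos window holds TGACG at 2 places, at bases -129 to -125 and -66 to -62 counted back from the start, and TATAAA at -33 to -28. The Junb window holds TGACG once, at -106 to -102, and the Jun window holds none of the letters searched. TGACG also stood in windows of Fosb, Atf3 and Maff, which were not called between grades. It was not in those of Fosl2 and Jund. Of 32851 promoter windows of the same length, 17.77% hold TGACG and 12.37% hold TATAAA. Promoters were found for 8 of the 10 members, not for Fosl1 and Egr1. Among these windows the whole cyclic AMP response element, TGACGTCA, stood only at 1 of 3 Maff starts, against 1.55% of all windows. The TPA response element, TGANTCA, was in no member's window and in 6.75% of all. The CArG box of serum response factor was in none and in 1.47% of all, and GCGNGGGCG, the Egr element, was in those of Fosb, Fosl2 and 1 Maff start and in 4.7% of all. The TGACG matches lie within TGACGTCA where the latter occurs. A match is a description of letters only, and elements beyond this window were not searched.

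Before the results, 3 facts of the arrays bear on them. First, the tissue moves with the classes: the mean level of 7 keratinocyte markers lay between 12.32 and 12.59 in skin, 12.58 and 13.02 in poorly differentiated, 5.04 and 8.74 in undifferentiated/spindle and 6.25 and 11.55 in mixed tumors. Second, the 3′ probeset of Actb, set against its 5′ probeset as a sign of RNA degradation, stood higher by 0.5 to 1.19 in skin, 0.42 to 0.82 in poorly differentiated, 0.38 to 0.66 in mixed and 0.24 to 0.38 in undifferentiated/spindle tumors. The last is that Rb1 lay between 6.55 and 8.14 in RbΔEC; Trp53ΔEC tumors, 7.85 and 8.84 in Trp53ΔEC tumors and 8.95 and 9.26 in skin, and the sources used here do not say whether its probeset lies in the deleted part.

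**Figure D1:**
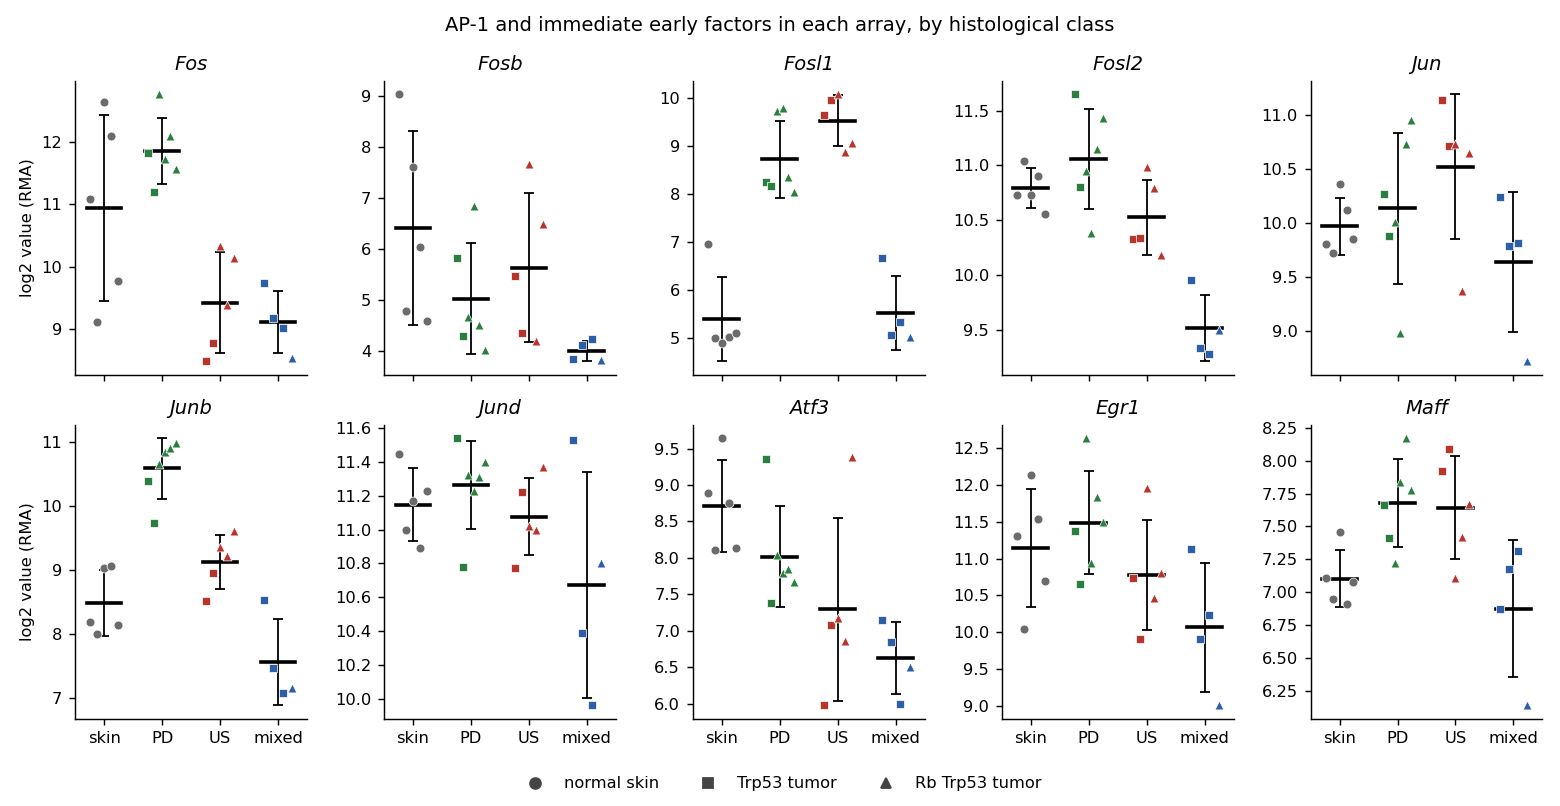
Log2 value of each of the 10 genes in each of the 20 arrays, by class (skin, normal skin, n = 5; PD, poorly differentiated, n = 6; US, undifferentiated/spindle, n = 5; mixed, n = 4). Circles are skin, squares Trp53ΔEC and triangles RbΔEC; Trp53ΔEC tumors; lines and bars are means ± SD, and each panel has its own axis. Fosl1 lies at 8.05 or higher in PD and US and at 6.97 or lower in skin and mixed tumors, and Junb lies at 9.73 or higher in PD and at 9.62 or lower elsewhere.

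The plot of values by array shows how unevenly these genes varied. Fosl1 had an SD of 1.79 over the 15 tumors, above that of 97.2% of genes, Fos 1.43 and Junb 1.34, while Jund (0.44) and Maff (0.52) stayed near the median of all genes, 0.4. Within normal skin the spread was as wide for some: Fosb had an SD of 1.9 over the 5 skin samples and Fos 1.49, each above that of 99.9% of genes. Egr1 (0.8) was above that of 99% of them, Fosl2 (0.18) above that of only 47.3%. Skin samples with high Fos were also high in Egr1, in the same order over the 5 samples.

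Fosl1 (Fra-1, a Fos protein without the transactivation domain of Fos) was the member with the largest change from skin. In skin it measured 6.97 in replicate 1 and 5.01, 4.9, 5.02 and 5.11 in the others. In poorly differentiated carcinomas it ran from 8.05 over a median of 8.3 to 9.78. In undifferentiated/spindle carcinomas it measured 9.64 and 9.95 in the Trp53ΔEC tumors and 10.07, 8.88 and 9.06 in the RbΔEC; Trp53ΔEC tumors. These tumors lay above every skin sample. The mixed tumors, at 6.67, 5.07 and 5.33 (Trp53ΔEC) and 5.03 (RbΔEC; Trp53ΔEC), lay within the range of skin. By limma, fitted over all genes with Benjamini-Hochberg adjustment as in every test of groups below, Fosl1 was 17.4-fold higher in undifferentiated/spindle carcinomas than in skin (log2 difference 4.12 ± 0.40 SE, adjusted p = 7.61e-06). It was 9.98-fold higher in poorly differentiated ones (3.32 ± 0.45, adjusted p = 0.000129), and the difference of mixed tumors from skin was 0.13 ± 0.50 (adjusted p = 0.86). The order of its means was undifferentiated/spindle (9.52 ± 0.53 SD), poorly differentiated (8.72 ± 0.80), mixed (5.53 ± 0.77) and skin (5.4 ± 0.88). Neither the upper pair (0.80 ± 0.38 SE, adjusted p = 0.165) nor the lower pair differed past the test. The second Fosl1 probeset gave 3.32 ± 0.31 and 2.31 ± 0.30 for the first 2 of these comparisons with skin.

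For all 15 tumors against skin, Fosl1 rose 6.66-fold (adjusted p = 0.0115) and Atf3, a stress-induced factor that represses many of its targets, fell 2.47-fold (log2 difference -1.31 ± 0.46, adjusted p = 0.0328). These were 1 of 10 members called higher and 1 called lower, when 17.7% and 18.0% of all genes were, at an adjusted p under 0.05. The median difference of the members was -0.19 and that of all genes 0.02. Atf3 was no longer called without skin replicate 1, 3 or 4 (adjusted p = 0.0724, 0.115 and 0.0663), and Fosb was called lower without RbΔEC; Trp53ΔEC tumor 1 (adjusted p = 0.0482). As the classes below differ, the pooled comparison mixes groups that move apart.

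Poorly differentiated carcinomas carried higher Fosl1, Junb and Maff than skin. Junb, a Jun protein that opposes proliferation in several cell types, measured 8.2, 8, 9.03, 9.06 and 8.14 in skin replicates 1 to 5 and ran from 9.73 over 10.75 to 10.98 in these tumors. The groups did not overlap, and the difference was 4.29-fold (log2 2.10 ± 0.27 SE, adjusted p = 8.36e-05). Maff, a small Maf protein that has no transactivation domain and pairs with Nrf-type factors, ran from 7.22 over 7.72 to 8.17 against 6.91 to 7.46 in skin, groups that overlapped at their edges (0.58 ± 0.17, adjusted p = 0.0157). The 3 calls were 3 of 10 members higher and 0 lower, against 21.2% and 22.0% of all genes. At an unadjusted p under 0.05 no member was lower either, when 4631 of 18193 genes were. Cell type markers differed from skin as well, beside the same shares of all genes. All 5 neutrophil markers and 3 of 7 keratinocyte markers were higher, and of 7 fibroblast markers 1 was higher and 4 lower. All 8 skeletal muscle, 4 of 6 endothelial, 2 of 8 macrophage and 1 of 4 T cell markers were lower, and no marker of these types was higher. The part of the cell makeup in the 3 calls was not tested.

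The other members did not pass the test in poorly differentiated carcinomas. Fos lay 0.92 ± 0.57 above skin (adjusted p = 0.224), with all tumors between 11.2 and 12.76, inside or just above the skin range of 9.12 to 12.64. Atf3 gave -0.69 ± 0.36 (adjusted p = 0.144), and without Trp53ΔEC tumor 4, which at 9.36 stood above the other 5 tumors, it was called lower (-0.96, adjusted p = 0.0137). Fosl2 (Fra-2) depended on the probeset: the kept one gave 0.27 ± 0.20 (adjusted p = 0.319 over all probesets), while the second, dimmer one gave 1.21 ± 0.12 (adjusted p = 1.64e-05), with 7.34 to 7.84 in tumors and 6.17 to 6.52 in skin.

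Undifferentiated/spindle carcinomas, whose members called against skin were Fosl1 and Maff higher and Atf3 lower, differed from poorly differentiated ones in Fos and Junb. Against skin these were 2 and 1 of 10 members, against 25.7% and 23.5% of all genes. For Fosl2 the probesets again differed: the kept one gave -0.27 ± 0.16 (adjusted p = 0.212 over all probesets) and the second 0.83 ± 0.14 (adjusted p = 0.000448). Maff measured 7.92 and 8.09 in the Trp53ΔEC tumors and 7.11, 7.42 and 7.67 in the RbΔEC; Trp53ΔEC tumors (0.54 ± 0.19 against skin, adjusted p = 0.0311). Atf3 measured 5.98 and 7.08 in the former and 7.17, 6.86 and 9.38 in the latter (-1.42 ± 0.54, adjusted p = 0.0484), so that a single tumor reached the level of skin, 8.11 to 9.64. Both calls were at the edge: leaving out 1 array ended that of Atf3 in 9 of 10 cases (adjusted p up to 0.114) and that of Maff in 7 of 10 (up to 0.072). Jun was called higher without RbΔEC; Trp53ΔEC tumor 3 (0.84, adjusted p = 0.00157), Fos lower without skin replicate 2 (-1.97, adjusted p = 0.0199), and Junb higher without skin replicate 3 or 4 or Trp53ΔEC tumor 1 (adjusted p = 0.0341, 0.031 and 0.0228).

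Between the carcinoma grades, Fos and Junb were lower in undifferentiated/spindle carcinomas and no member was higher. Fos, the founding partner of Jun in AP-1, measured 8.49 and 8.78 in the Trp53ΔEC and 10.34, 9.39 and 10.15 in the RbΔEC; Trp53ΔEC undifferentiated/spindle tumors, all below the lowest poorly differentiated tumor at 11.2. The difference was 5.39-fold (log2 -2.43 ± 0.37 SE, adjusted p = 0.000692). Junb measured 8.52, 8.95, 9.36, 9.22 and 9.62 in the same tumors, again without overlap, and was 2.74-fold lower (-1.45 ± 0.25, adjusted p = 0.0016). These were 2 of 10 members lower, against 9.90% of all genes, and 0 higher, against 12.7%. At an unadjusted p under 0.05 no member was higher, when 3493 of 18193 genes were. Both calls held when any 1 array was left out and with genotype as a covariate.

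**Figure D2:**
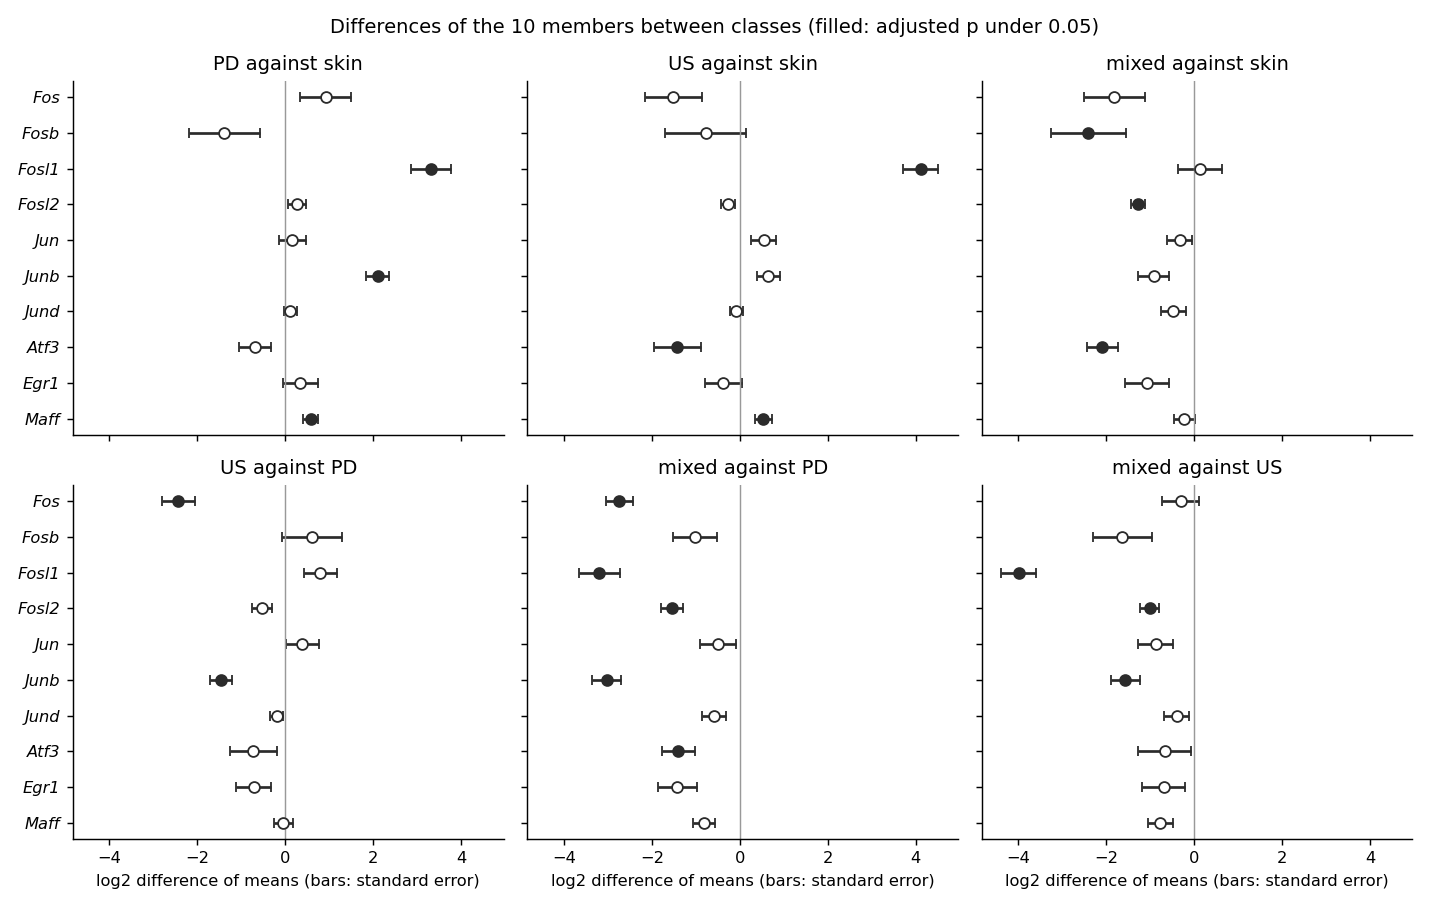
Log2 difference of means for the 10 genes in the 6 comparisons between classes (PD, poorly differentiated; US, undifferentiated/spindle). Bars are standard errors from limma, and filled points passed an adjusted p under 0.05. Fosl1 lies at 3.32 and 4.12 against skin in PD and US and at 0.13 in mixed tumors. All 10 points lie below 0 for mixed against PD and mixed against US, where 49.95% and 48.8% of all genes lie above 0.

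These falls had the same sign in both genotypes. The fall of Fos from poorly differentiated to undifferentiated/spindle was -2.88 among Trp53ΔEC tumors and -2.07 among RbΔEC; Trp53ΔEC tumors, and that of Junb -1.33 and -1.45. The test of a difference between genotypes, an interaction term, called 0 of 18193 genes by limma, with 1283 at an unadjusted p under 0.05, and gave an adjusted p of 0.781 for Fos and 0.947 for Junb. Within the undifferentiated/spindle class, the 2 spindle tumors held Fos at 8.49 and 10.34 and the 3 undifferentiated ones at 8.78, 9.39 and 10.15, so the ranges overlapped.

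The remaining members between grades were Fosl1 (0.80), Fosb (0.61 ± 0.69), Jun (0.39 ± 0.38), Maff (-0.04 ± 0.21), Jund (-0.19 ± 0.15), Fosl2 (-0.53 ± 0.23), Egr1 (-0.72 ± 0.40) and Atf3 (-0.73 ± 0.54), with adjusted p between 0.127 and 0.923. Of these, Fosl2 was called lower without RbΔEC; Trp53ΔEC tumor 6 (-0.67, adjusted p = 0.0422) and Atf3 without RbΔEC; Trp53ΔEC tumor 5 (-1.25, adjusted p = 0.0403). The keratinocyte markers moved with the grade calls: 7 of 7 measured were lower in undifferentiated/spindle carcinomas (Krt14, a basal keratin, by -7.38 ± 1.13, adjusted p = 0.000703), and 5 of 8 macrophage markers were higher (Adgre1, 2.36 ± 0.43). Of 5 neutrophil markers 4 were lower (S100a9, -6.76 ± 0.34) and 4 of 6 endothelial markers were higher (Robo4, 1.33 ± 0.19). Of 7 fibroblast markers 1 was higher and 0 lower, and 0 of 4 T cell and 0 of 8 skeletal muscle markers were called. The shares of all genes were 9.90% lower and 12.7% higher. In whole tissue, fewer cells of a type and less RNA per cell cannot be told apart, and the part of the cell makeup or of the Actb difference in the fall of Fos and Junb was not tested.

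Mixed tumors had the lowest mean level of the family. Their mean over the 10 members was 8.57, 7.93 and 7.83 in Trp53ΔEC tumors 3, 5 and 7 and 7.52 in RbΔEC; Trp53ΔEC tumor 4, against 9.03 to 9.82 in poorly differentiated, 8.76 to 9.64 in undifferentiated/spindle tumors and 8.38 to 9.57 in skin. Against skin, 3 members were lower and 0 higher by limma, when 20.1% of all genes were called in each direction. No member was higher at an unadjusted p under 0.05, when 4438 of 18193 genes were. Fosl2 measured 9.95, 9.33, 9.28 and 9.5 in these tumors against 10.73, 11.04, 10.73, 10.9 and 10.56 in skin (2.43-fold lower, log2 -1.28 ± 0.16 SE, adjusted p = 0.000288). Its second probeset did not show this fall (-0.12 ± 0.11, adjusted p = 0.418 over all probesets). Atf3 measured 7.15, 6.85, 6 and 6.5 and was 4.25-fold lower than skin, with no overlap (-2.09 ± 0.35, adjusted p = 0.0013). Fosb, a close relative of Fos, measured 3.84, 4.11, 4.23 and 3.82 against 4.58 to 9.03 in skin (-2.41 ± 0.85, adjusted p = 0.0477). Its call was lost in 7 of 9 cases when 1 array was left out (adjusted p up to 0.104). Its values in mixed tumors lie under 4.86, the first quartile of the single values of all genes in all arrays.

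The Trp53ΔEC mixed tumor 3 stood above the other 3 mixed tumors for Fos, Fosl1, Fosl2, Jun, Junb, Jund, Atf3 and Egr1. Without it, Junb (-1.25, adjusted p = 0.00917), Jund (-0.76, adjusted p = 0.0195) and Egr1 (-1.42, adjusted p = 0.0426) were also called lower than skin. As it was the highest mixed tumor for these genes, leaving it out could only lower their means. The share of all genes for which this tumor stood highest was not counted. The same tumor had the highest keratinocyte marker mean of the mixed tumors, 11.55 against 10.4, 9.9 and 6.25, and their neutrophil marker means were 4.99 in it and 7.17, 6.58 and 8.41 in the others. Without skin replicate 2 or 5, Fos was called lower (adjusted p = 0.0186 and 0.0488).

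Set against the other carcinomas, all 10 members were lower in mixed tumors on average by the kept probesets. Of all genes, 49.95% were higher on average against poorly differentiated and 48.8% against undifferentiated/spindle tumors. The second Jun probeset gave 0.11 ± 0.31 against poorly differentiated tumors (adjusted p = 0.875 over all probesets). This pair of comparisons was added after the values by class had been seen. Against poorly differentiated tumors the median difference was -1.41 (all genes, 0.00), and 5 of 10 members were called lower and 0 higher, against 6.95% and 7.39% of all genes. Junb was 8.13-fold lower (-3.02 ± 0.33 SE, adjusted p = 0.000487), Fosl1 9.15-fold (-3.19 ± 0.46, adjusted p = 0.00219) and Fos 6.67-fold (-2.74 ± 0.31, adjusted p = 0.000613). Fosl2 was 2.92-fold (-1.55 ± 0.25, adjusted p = 0.00353) and Atf3 2.63-fold lower (-1.39 ± 0.37, adjusted p = 0.0327). The groups overlapped for none of these 5 genes, which had been picked by their calls. The share of all genes without overlap was not counted. Among all 10, the call of Atf3 was lost in 5 of 10 cases when 1 array was left out (adjusted p up to 0.0952), and Jund and Egr1 were called without Trp53ΔEC tumor 3 (adjusted p = 0.031 and 0.0299).

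Against undifferentiated/spindle tumors the median was -0.82, and 3 of 10 members were lower and 0 higher, against 6.53% and 4.44% of all genes. No member was higher at an unadjusted p under 0.05 in either comparison. Of 18193 genes, 2821 were so against poorly differentiated and 2222 against undifferentiated/spindle tumors. Fosl1 was 15.9-fold lower (-3.99 ± 0.39, adjusted p = 0.000544), with mixed tumors at 6.67 or less and the others at 8.88 or more. Junb was 2.97-fold lower (-1.57 ± 0.33, adjusted p = 0.0186), with ranges that met at 8.54 and 8.52. Fosl2 was 2.02-fold lower (-1.01 ± 0.21, adjusted p = 0.0177) without overlap. Without Trp53ΔEC tumor 7 the calls of Junb and Fosl2 were lost (adjusted p = 0.0524 and 0.0505). Fos, at 9.74, 9.18, 9.02 and 8.54, overlapped the undifferentiated/spindle tumors (-0.31 ± 0.42, adjusted p = 0.704). Within Trp53ΔEC tumors alone, with 3 mixed tumors against 2 of each other class, the sign of all called differences held and none passed the test: Junb gave -2.37 (adjusted p = 0.151) against poorly differentiated and Fosl1 -4.10 (adjusted p = 0.0562) against undifferentiated/spindle tumors.

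Some cell type markers of mixed tumors differed too. Of 7 keratinocyte markers 5 were lower than in poorly differentiated tumors, as were 4 of 5 neutrophil markers (median difference -2.08), 2 of 4 T cell markers and 1 of 7 fibroblast markers. The share of all genes was 6.95%, and 0 of 8 macrophage and 0 of 6 endothelial markers were lower. Against undifferentiated/spindle tumors, 3 of 7 fibroblast, 3 of 6 endothelial and 1 of 4 T cell markers were lower and 1 keratinocyte marker was higher. Of all genes 6.53% were lower and 4.44% higher. All 8 macrophage markers were lower than in undifferentiated/spindle tumors, with mean levels of 8.09 to 9.16 against 11.05 to 11.57. Skeletal muscle markers, at 13.69 to 14.14 in skin, lay between 4.99 and 9.32 in all tumors. T cell markers lay between 5.66 and 5.79 in mixed tumors, against 5.79 to 6.98 elsewhere, and fibroblast markers between 9.32 and 12.03, against 12.38 to 12.82 in skin. The part of these in the low levels of the family was not tested.

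With all arrays in the fit, Jun, Jund and Egr1 passed the test in no comparison. Jun, the partner that most AP-1 dimers share, had means of 9.97 ± 0.26 (SD) in skin, 10.14 ± 0.70 in poorly differentiated, 10.52 ± 0.67 in undifferentiated/spindle and 9.64 ± 0.65 in mixed tumors, and no pair of classes compared differed past the test. Jund, which is made in resting cells and often acts against growth, had 11.15 ± 0.22, 11.26 ± 0.26, 11.07 ± 0.23 and 10.67 ± 0.67 in the same order of classes. Its second probeset, at a mean of 4.15, carried little signal. Egr1, a zinc finger factor outside the AP-1 family that the same signals induce, had 11.14 ± 0.80, 11.49 ± 0.70, 10.77 ± 0.75 and 10.07 ± 0.88.

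Genotype moved no member past the test. Of the 10, 8 were higher on average in RbΔEC; Trp53ΔEC than in Trp53ΔEC tumors (of all genes, 48.8%), with a median difference of 0.56 (all genes, -0.01). By limma 0 were called, against 0.0110% of all genes higher and 0.0220% lower. No member reached an unadjusted p under 0.05 in this fit, when 483 of 18193 genes did so higher and 480 lower. At that limit 1 member was higher in a single fit over all groups, and 1 among poorly differentiated tumors alone (638 and 623 genes higher). Junb ran from 7.16 over 10.14 to 10.98 in RbΔEC; Trp53ΔEC and from 7.09 over 8.54 to 10.4 in Trp53ΔEC tumors (1.17 ± 0.61, adjusted p = 0.954). The classes are spread unevenly over the genotypes, and 3 of 4 mixed tumors are Trp53ΔEC. With class as a covariate the difference of Junb was 0.44 ± 0.25 (adjusted p = 0.715) and that of Fosl1 moved from 1.04 ± 0.87 to -0.01 ± 0.38. Among poorly differentiated tumors alone, the difference of Junb was 0.78 ± 0.22 (limma, adjusted p = 0.715).

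**Figure D3:**
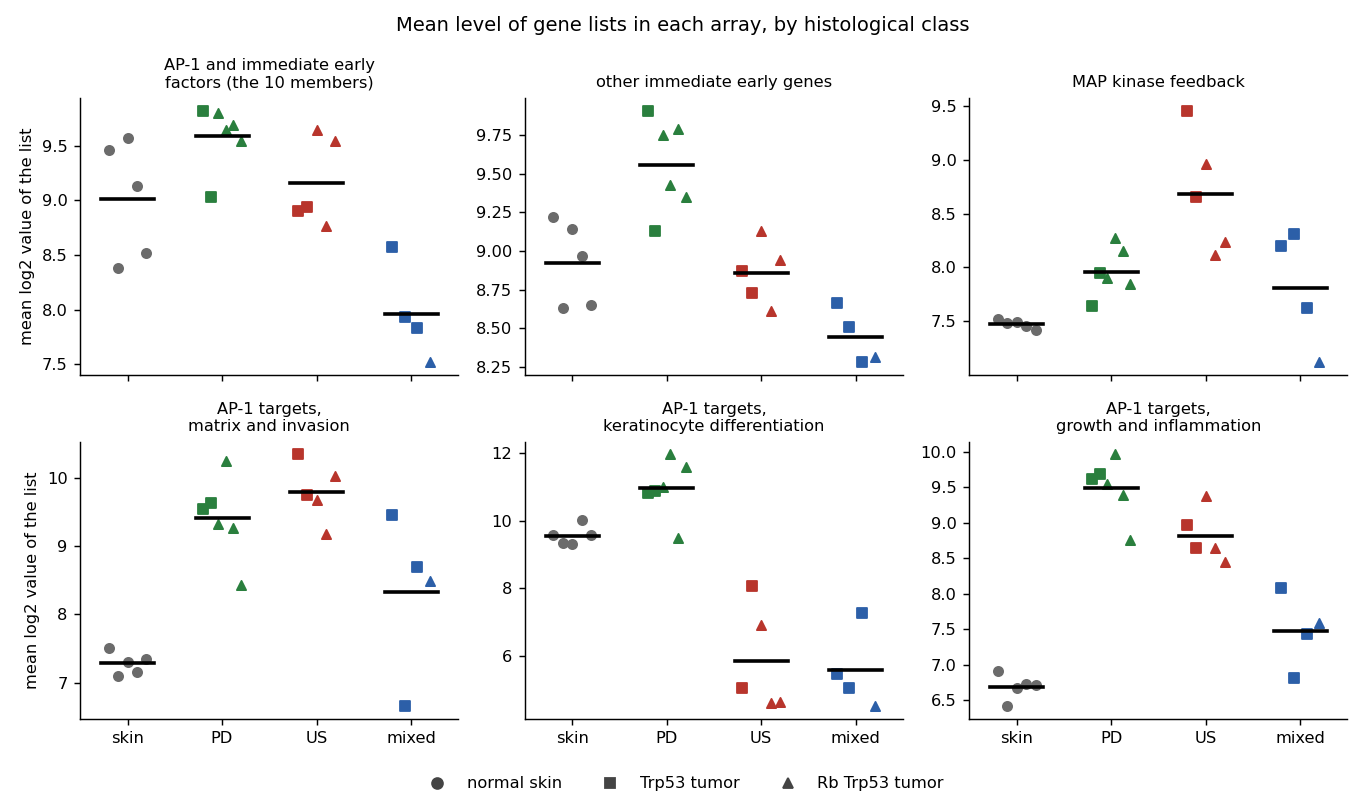
Mean log2 level of the 10 members and of 5 gene lists in each of the 20 arrays, by class (skin; PD, poorly differentiated; US, undifferentiated/spindle; mixed); lines are class means, shapes are genotypes, and each panel has its own axis. The other immediate early genes lie highest in PD (mean 9.56), MAP kinase feedback genes highest in US (8.69), and the keratinocyte differentiation targets at 5.85 in US and 5.57 in mixed tumors against 10.96 in PD.

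Around the family, the plot of list means sets out the genes that feed it, share its induction or carry its sites. Among 28 other immediate early genes, 13 were lower and 2 higher in undifferentiated/spindle than in poorly differentiated carcinomas (median difference -0.76, all genes 0.02), when 9.90% of all genes were lower and 12.7% higher. Ier3, an early gene that limits cell death, was lower (-2.67 ± 0.22, adjusted p = 8.04e-06), Egr2, a relative of Egr1, as well (-2.15 ± 0.61, adjusted p = 0.0258) and Arc, best known from neurons, too (-2.08 ± 0.50, adjusted p = 0.0106). Against skin, 12 of them were higher and 2 lower in poorly differentiated carcinomas (all genes, 21.2% and 22.0%), led among the named genes by Ier3 (3.52 ± 0.26) and by Socs3, a brake on cytokine receptors (2.82 ± 0.29). In undifferentiated/spindle carcinomas 9 were higher and 7 lower than in skin (25.7% and 23.5%), and in mixed tumors 3 were higher and 7 lower (20.1% each). Mixed tumors held 11 lower than poorly differentiated ones and 0 higher (6.95% and 7.39%).

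Of 17 other bZIP proteins measured of 19 listed, 3 were higher and 3 lower between the grades, a share near that of all genes (12.7% and 9.90%). Jdp2, a Jun partner that represses AP-1, was higher in undifferentiated/spindle carcinomas (1.40 ± 0.33, adjusted p = 0.0105), and Cebpb, a factor of keratinocyte and immune genes, was lower (-1.37 ± 0.38, adjusted p = 0.0239). In tumors as a whole, Atf7 was higher than in skin (1.28 ± 0.22) and Nfe2l1 lower (-1.07 ± 0.16).

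On the input side, 17 of 24 listed kinases and serum response genes were measured, and 3 were higher and 1 lower between grades, again near the share of all genes (12.7% and 9.90%). In undifferentiated/spindle carcinomas 8 were higher and 7 lower than in skin, against 25.7% and 23.5% of all genes. Map2k4, a kinase upstream of JNK, was lower in undifferentiated/spindle carcinomas (-1.06 ± 0.12, adjusted p = 9.96e-05). Map2k1 (MEK1) was higher in tumors than in skin (0.75 ± 0.18, adjusted p = 0.00212), as was Elk3, a partner of serum response factor (1.71 ± 0.43, adjusted p = 0.00404), and Rps6ka3 was lower (-0.81 ± 0.13). Of 10 feedback genes, which MAP kinase signaling itself induces and which then restrain it, 7 were higher and 0 lower in undifferentiated/spindle carcinomas than in skin (all genes, 25.7% and 23.5%), and 4 higher and 0 lower than in poorly differentiated ones (12.7% and 9.90%). Against skin, 4 were higher and 1 lower in poorly differentiated carcinomas (21.2% and 22.0%), and 4 higher and 2 lower in mixed tumors (20.1% each). Dusp4, a phosphatase of MAP kinases, was 3.94 ± 0.33 above skin and Spry4 1.65 ± 0.40. Between grades Spry4 (1.64 ± 0.38, adjusted p = 0.00901) and Spred3 (1.21 ± 0.37, adjusted p = 0.0344) were higher, while Dusp6 gave -0.17 ± 0.28 and was 1.14 ± 0.41 higher in all tumors than in skin.

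Genes with known AP-1 sites were listed by role. Of 12 matrix and invasion targets, 9 were higher and 0 lower in undifferentiated/spindle carcinomas than in skin (all genes, 25.7% and 23.5%), 6 and 0 in poorly differentiated ones (21.2% and 22.0%), and 4 and 0 in mixed tumors (20.1% each). Between the grades 3 were higher and 2 lower (12.7% and 9.90%). Mmp13, a collagenase, was 8.30 ± 0.21 above skin in poorly differentiated, 4.96 ± 0.61 in undifferentiated/spindle and 5.08 ± 0.71 in mixed tumors. Mmp10 gave 4.18 ± 0.32, 3.40 ± 0.29 and 1.66 ± 0.52 in the same order. Timp1, an inhibitor of such proteases, gave 3.28 ± 0.48, 5.13 ± 0.28 and 2.56 ± 0.46, and Hmga2, a chromatin protein of embryonic tissue, was 4.21 ± 1.03 higher in undifferentiated/spindle than in poorly differentiated carcinomas.

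Of 10 targets of growth and inflammation, 9 were higher than skin in poorly differentiated carcinomas (all genes, 21.2%), 8 in undifferentiated/spindle carcinomas (25.7%) and 5 in mixed tumors (20.1%). Lower than skin were 0, 0 and 1 of them. Between the grades 2 were higher and 3 lower (12.7% and 9.90%). Ptgs2 (cyclooxygenase-2) was 6.03 ± 0.54, 4.07 ± 0.31 and 2.28 ± 0.78 above skin in that order. Hbegf, a ligand of the EGF receptor, was 4.34 ± 0.28 and 2.94 ± 0.39 above skin in the first 2 classes and gave 0.41 ± 0.30 (adjusted p = 0.316) in mixed tumors. Il1b was lower in undifferentiated/spindle than in poorly differentiated carcinomas (-3.44 ± 0.37, adjusted p = 5.81e-05), and Il6 gave -2.42 ± 0.90 (adjusted p = 0.078).

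Among 7 keratinocyte differentiation targets, 6 were lower and 0 higher in undifferentiated/spindle than in poorly differentiated carcinomas (all genes, 9.90% and 12.7%), and the same counts stood for mixed against poorly differentiated tumors (6.95% and 7.39%). Against skin, 3 were higher and 1 lower in poorly differentiated carcinomas (21.2% and 22.0%), and 0 were higher and 6 lower in both undifferentiated/spindle (25.7% and 23.5%) and mixed tumors (20.1% each). Sprr1b, a cornified envelope precursor, was 8.63 ± 0.19 above skin in poorly differentiated carcinomas and lower in undifferentiated/spindle than in poorly differentiated ones (-7.86 ± 0.65). Ivl (involucrin, -5.08 ± 0.51), Sprr1a (-6.63 ± 0.45) and Krt1 (-4.94 ± 1.50, adjusted p = 0.0348) were lower between the grades. Of 10 cell stress genes 5 were lower and 1 higher between the grades (9.90% and 12.7%). The heat shock genes Hspa1a (-2.15 ± 0.68), Hspa1b (-2.28 ± 0.51) and Hspb1 (-2.08 ± 0.39) were among the 5, as was Ddit4 (-1.72 ± 0.41). Between genotypes no gene of any list was called.

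Within a class, few members varied together. Values of the 15 tumors were centred on their class means, since the classes lie apart, and 45 pairs were tested by permutation of tumors within classes. Of these, 33 were positive, and 2 passed an adjusted p under 0.05 by Pearson's r and 0 by both r and Spearman's rho. Fos and Egr1 gave r = 0.81 (permutation p = 0.0004, adjusted 0.018) and rho = 0.76 (permutation p = 0.00338, adjusted 0.111), and r = 0.68 without the 2 tumors farthest from the median of Fos. Jund and Atf3 gave r = 0.59 (permutation p = 0.00212, adjusted 0.0477) and rho = 0.69 (permutation p = 0.00847, adjusted 0.127), and 0.67 without 2 tumors. Fos and Junb, which fell together between grades, gave r = 0.69 and rho = 0.62 within classes (permutation p = 0.00579 and 0.0214, adjusted 0.0794 and 0.241), and 0.79 without 2 tumors. Fosl1 and Fos gave r = 0.38 and rho = 0.34 (permutation p = 0.162 and 0.229, adjusted 0.519 and 0.564), and 0.12 without 2 tumors.

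**Figure D4:**
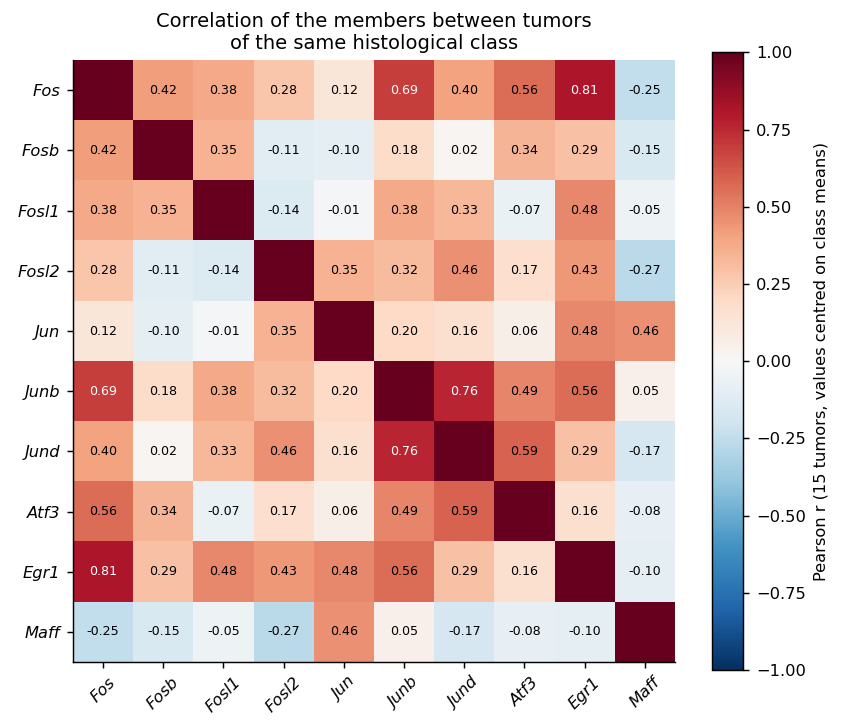
Pearson's r between each pair of the 10 genes over the 15 tumors, after each value was centred on the mean of its histological class. Red is positive and blue negative; Fos and Egr1 (0.81), Junb and Jund (0.76) and Fos and Junb (0.69) are the highest of the 45 pairs, and Maff is below 0 with 7 of the 9 others.

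For the 7 members called in any comparison, the 3 genes of highest Pearson's r over the 15 uncentred tumor values were as follows, as a description that mostly follows the classes. Junb was nearest to Gna15 (0.95), Cstb (0.943) and Fam167a (0.939), and Fos to Palmd (0.925), Lce3f (0.92) and Cpeb2 (0.919). Fosl1 was nearest to Myof (0.934), Mapk6 (0.931) and Anxa2 (0.919). Fosl2 was nearest to Emb (0.897), Sox7 (0.89) and Pfkfb4 (0.884), and Maff to Apba3 (0.907), Agpat3 (0.899) and Plekhb2 (0.887). Fosb followed Tmem63c (0.895), Dok2 (0.89) and Ptger2 (0.866), and Atf3 had the lowest such values, with Prss46 (0.81), Tmem262 (0.802) and C130036L24Rik (0.79).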

How the data were processed

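Total RNA of 5 skin samples and 15 tumors had been hybridized to Affymetrix MOE430 2.0 arrays. The deposited log2 values had been background-corrected, normalized and summarized by the authors with RMA (the sources used here do not give its version). They are relative signals, shrunk at the dim end, and their number limits the precision. The labels do not say that each tumor came from its own mouse, so p-values cover only the spread among the samples at hand, which may be technical.

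Of 45101 probesets, 64 controls were left out. The platform annotation gives a single symbol to 34945 probesets, more than 1 to 932 and no symbol to 9160. The probeset with the highest mean was kept per gene, leaving 18193 genes. Groups come from the labels. Each comparison was fitted on its own groups with limma 3.58.1 (R 4.3.3). Tests were two-sided, p-values were adjusted by Benjamini-Hochberg over all genes, and 0.05 was the limit for a call. The methods' t-test, other probeset rules, scaling, filter, variance models and each array left out were tried as alternatives. The fit was tested on simulated data. Replicate numbers were taken as names: same-numbered samples of different groups correlated between -0.478 and 0.64 in their deviations. Pooled correlations over tumors were replaced by class-centred ones, since the classes lie apart.

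The members and gene lists were chosen with earlier results of these data known. Genes named are all members, up to 4 per list (largest change among those called between grades or in tumors against skin, then smallest p) and the 3 nearest genes. Trp53 and 19 listed genes outside the annotation's single-gene probesets were not analysed here. Correlations used 100000 resamples. Tables were made in Python 3.11.15 (pandas 2.3.3, numpy 2.4.6), statistics with scipy 1.17.1, and figures with matplotlib 3.10.9.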

Additional observations from a re-analysis of the deposited data

Results flagged for a closer look

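Of 60 groups of 4 to 8 arrays examined, 6 held an array that stood apart by Dixon's gap test at its 95% critical value. In a single uniform group, chance passes this value about 1 time in 20. The groups here share tumors, and those by genotype pool the classes, so that rate is no yardstick for the 6. Fosl1 measured 6.97 in normal skin replicate 1, with the other 4 skin samples between 4.9 and 5.11. RbΔEC; Trp53ΔEC tumor 4, the mixed tumor of that genotype, was lowest of its 8 tumors for Fosl1 (5.03, the others 8.05 to 10.07) and for Junb (7.16, the others 9.22 to 10.98). Jun measured 9.37 in RbΔEC; Trp53ΔEC tumor 3, with the other undifferentiated/spindle tumors between 10.65 and 11.14. Atf3 measured 9.36 in Trp53ΔEC tumor 4, above the other poorly differentiated tumors (7.38 to 8.04) and above the other Trp53ΔEC tumors (5.98 to 7.38).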

How the results depend on the processing

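Over 1552 alternatives of the 80 member differences, no called difference changed sign. Of 378 alternatives of the 21 called differences, 325 kept the call, and 8 differences kept it under every alternative run. Of 1174 alternatives of the 59 uncalled ones, 31 gained it. The cause of each change below was not tested.

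Against skin, all tumors had 2 members higher instead of 1 in one fit over all groups and over all probesets. At the methods' own threshold their t-test gave 0 higher and 0 lower, with 233 genes higher and 240 lower. For undifferentiated/spindle carcinomas the 2 higher became 1 with arrays centred on their medians, by the methods' t-test and in one fit over all groups, and 3 without dim genes and over all probesets. The 1 lower became 0 by the methods' t-test, with a variance trend and robust prior and over all probesets, and 2 in one fit. For mixed tumors the 3 lower became 5 with centred arrays and in one fit. Within Trp53ΔEC tumors, an alternative chosen after seeing the data, mixed tumors had 0 members lower than either other class (99 and 95 genes lower, 13 and 34 higher), and by the methods' t-test 1 member was lower than in undifferentiated/spindle tumors.

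With the replicate block, all tumors against skin kept 1 member higher and had 0 lower (Atf3 -1.27, adjusted p = 0.104), and the genotypes had 0 and 0 members called. The numbers do not pair samples by the labels, and same-numbered deviations correlated above 0.1 in 2 of 7 pairs between genotypes.

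Leaving out 1 array at a time, members called higher and lower ranged from 1 to 1 and 0 to 2 for all tumors, 3 to 3 and 0 to 1 for poorly differentiated, 1 to 3 and 0 to 1 for undifferentiated/spindle and 0 to 0 and 2 to 5 for mixed tumors against skin. They were 0 to 0 and 2 to 3 between grades, 0 to 0 in both directions between genotypes, 0 to 0 and 4 to 7 for mixed against poorly differentiated and 0 to 0 and 1 to 3 for mixed against undifferentiated/spindle tumors. Dim genes limit Fosb, which a filter on the median level leaves out.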
